A study of Macaca mulatta with 28 samples.

Results

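The 4 subunits of the G protein-gated inwardly rectifying potassium (GIRK) channel, encoded by KCNJ3 (GIRK1), KCNJ5 (GIRK4), KCNJ6 (GIRK2) and KCNJ9 (GIRK3), were examined in rhesus macaques that had drunk alcohol and in controls, in tissue of the ventral tegmental area (VTA). They were chosen by gene symbol, and each is represented by 1 of the 16885 transcripts with a symbol in the deposited table. All 4 passed the filter of at least 5 counts in at least 3 animals, as did 13769 transcripts in all. A punch of bulk VTA tissue from each of 28 adult male, wild-type macaques gave 1 RNA-seq library. The 17 drinkers were induced to drink by a schedule of food pellets. They then had open access to 4% (w/v) ethanol for 22 h a day over 12 months. Periods of forced abstinence and of renewed open access to ethanol then alternated, and tissue was taken after a last abstinence of 30 days. The 11 controls were calorically yoked or housing controls, which the labels do not separate. The labels place 1 drinker in the category Low, 2 in Binge, 5 in Heavy and 9 in Very Heavy. Cohort 1 held 8 controls and 8 drinkers (4 Heavy, 3 Very Heavy, 1 Low), and cohort 2 held 3 controls and 9 drinkers (1 Heavy, 6 Very Heavy, 2 Binge), so category and cohort were not balanced.

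GIRK channels are tetramers in the cell membrane. When a receptor coupled to Gi/o proteins, such as the dopamine D2 autoreceptor, the GABA-B receptor or an opioid receptor, releases G protein beta-gamma dimers, the dimers open the channel, potassium leaves the cell and the neuron is hyperpolarized. GIRK1 does not form working channels alone and needs a partner subunit, GIRK2 can form channels by itself, GIRK3 binds the trafficking protein SNX27, and GIRK4 is best known with GIRK1 in the atrium of the heart. In rodents, midbrain dopamine neurons are known for GIRK2 and GIRK3 and for little GIRK1, and ethanol can open GIRK channels directly. The study applied barium, which blocks inward rectifiers, to slices of the nucleus accumbens, where axons of VTA dopamine neurons end, and the transcripts described here come from the VTA itself.

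The channels share a potassium selectivity filter with the amino acids glycine, tyrosine and glycine. The 60 bases of coding sequence around it are shown from RefSeq transcripts of Mmul_10, 5′ to 3′, because they show how alike the 4 members are in this conserved stretch and where reads can be told apart. The capitals mark the 3 filter codons.
KCNJ3: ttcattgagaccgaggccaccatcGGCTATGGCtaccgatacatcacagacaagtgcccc
KCNJ5: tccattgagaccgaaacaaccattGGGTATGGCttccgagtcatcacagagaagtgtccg
KCNJ6: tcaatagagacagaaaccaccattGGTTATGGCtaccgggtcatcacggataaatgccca
KCNJ9: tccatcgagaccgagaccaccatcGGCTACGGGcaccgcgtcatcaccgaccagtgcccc
Pairs of members differed at 11 to 15 of these 60 bases. Over the whole coding sequence, identity between pairs ran from 64.6% (KCNJ3 and KCNJ6) to 72.7% (KCNJ5 and KCNJ9), and the longest run of bases that any pair shared exactly was 23, against a read length of 150 bases. On Mmul_10, KCNJ3 lies on the plus strand at chr12:41803182-41962883 and encodes 501 amino acids. KCNJ5 lies on the plus strand at chr14:121614196-121640736 and encodes 419. KCNJ6 lies on the plus strand at chr3:8706071-9014389 and encodes 423. KCNJ9 lies on the minus strand at chr1:90842311-90855379 and encodes 393. Exons of KCNJ9 shared 862 of their 8110 bases with IGSF8 on the opposite strand, and no exon of the other members overlapped an exon of another gene. The sources do not say whether counting used strand, and without it reads in the shared stretch cannot be told apart.

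Library totals ran from 12303914 to 27338669 counts, and the 13 mitochondrial transcripts took 36.4% to 60.6% of them, with medians of 46.3% in controls and 49.1% in drinkers. Levels are given below as normalized counts, the counts of a library rescaled to the mean effective library size. The 13 dopamine neuron markers all passed the filter, and the defining genes TH (tyrosine hydroxylase) and SLC6A3 (dopamine transporter) were above 0 in every library, with lowest values of 5.58 and 6.35 CPM (counts scaled to the library total). The summed CPM of the 13 markers ran from 50.8 to 1941 in controls (median 292) and from 48.6 to 1800 in drinkers (median 245), so both groups held punches rich and poor in dopamine neuron transcripts. NR4A2, EN1, PITX3, LMX1A, LMX1B and ALDH1A1 from this list were at 0 in some animals. In bulk tissue, fewer cells of a type and less RNA per cell cannot be told apart.

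KCNJ3 was the most highly counted subunit. Its normalized count had a mean of 317 ± 136 (SD, n = 28) and ran from 149 to 877. KCNJ6 followed with 159 ± 79.2 (SD, n = 28) and a range of 34.3 to 359, a 10.5-fold span between animals against 5.90-fold for KCNJ3. KCNJ9 had a mean of 98.0 ± 72.0 (SD, n = 28), but 6 animals were at 0 while the other 22 held 15 to 230 counts. KCNJ5 was low throughout, with 12.5 ± 10.9 (SD, n = 28), at most 41 counts in a library and 0 in 6 animals. A count of 0 allows up to 3 counts in that library by counting error alone. KCNJ5 had a median of 17 counts in controls and 8 in drinkers, and Heavy drinkers held 6 to 25.

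The 6 animals without KCNJ9 were 2 controls, 2 Heavy and 2 Very Heavy drinkers. Before rounding, 0 of the 22 KCNJ9 values above 0 were exactly whole, with no tolerance, compared with 16 of 28 for KCNJ3, 20 of 28 for KCNJ6 and 21 of 22 for KCNJ5. Over all transcripts 28.9% of the values above 0 were whole, so KCNJ9 stood below that share and the other members above it. An estimated count that is not whole can come from reads that fit several transcripts and were shared out among them. RefSeq lists 6 transcripts of KCNJ9 and the table holds 1 value per symbol, and whether reads of these 6 animals went to other KCNJ9 transcripts was not tested.

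Levels of different genes can be compared only per length, and the length of the counted transcript is not given in the sources used here. Per kilobase of the longest and the shortest RefSeq transcript, the mean level of KCNJ3 came to 2.93 and 9.90 CPM, that of KCNJ6 to 1.38 and 2.93 CPM, that of KCNJ9 to 0.680 and 1.04 CPM and that of KCNJ5, which has 1 RefSeq transcript, to 0.229 CPM. Per kilobase of coding sequence the mean levels were 9.76 CPM for KCNJ3, 5.80 CPM for KCNJ6, 3.85 CPM for KCNJ9 and 0.462 CPM for KCNJ5. KCNJ3 stood first, KCNJ6 next, then KCNJ9 and KCNJ5 on each of these scales. KCNJ3 on its longest transcript and KCNJ6 on its shortest met at the same level. The deposited data hold 1 transcript per symbol, so this order covers the counted transcripts and not necessarily the whole genes.

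**Figure D1:**
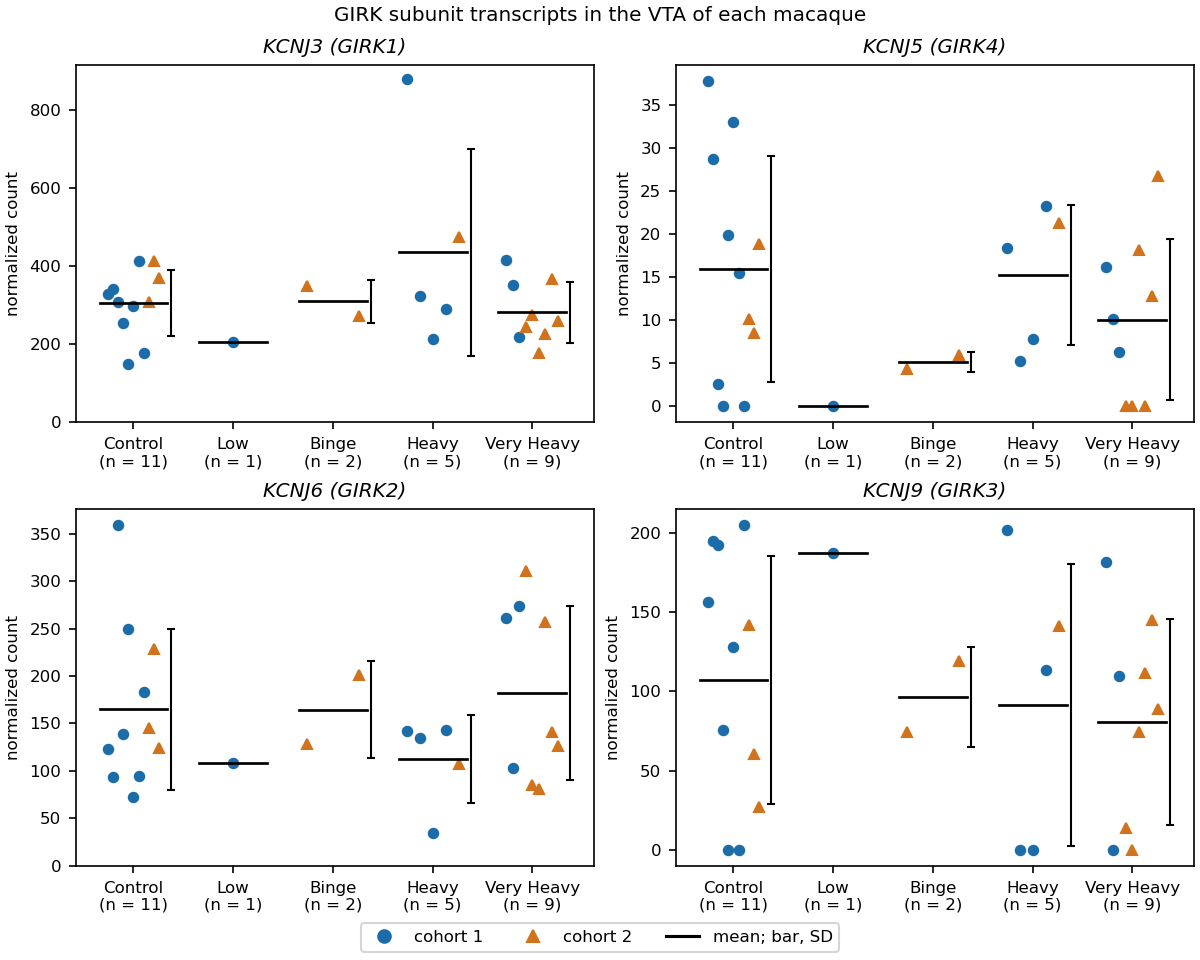
Normalized count (y axis) of each GIRK subunit in each macaque, by drinking category (x axis). A point is 1 animal, blue circles are cohort 1 and orange triangles cohort 2, the line is the group mean and the bar to its right the SD. Controls, Heavy and Very Heavy drinkers overlap in all 4 panels, 1 Heavy drinker stands at 877 for KCNJ3, and 6 animals each sit at 0 for KCNJ5 and KCNJ9.

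The first question was whether GIRK transcripts stood at another level after drinking and abstinence. None of the 4 subunits passed the test between drinkers and controls. KCNJ3 ran from 177 to 877 in drinkers (median 275, n = 17) and from 149 to 413 in controls (median 308, n = 11). Its log2 fold change was 0.09 ± 0.21 (SE), with a 95% interval of -0.33 to 0.51. The medians stood in the opposite order, and the fold change turned negative without the drinker at 877. KCNJ6 ran from 34.3 to 310.1 in drinkers (median 135) and from 72.5 to 359 in controls (median 139), a log2 fold change of -0.09 ± 0.28 with an interval of -0.65 to 0.48. The median of each group lay within the other group's range for both genes. The drinkers with KCNJ3 at 877, 475 and 414 lay above the highest control, at 413.

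For KCNJ9 the drinkers had a median of 109.5 with 4 of 17 animals at 0, and the controls a median of 128 with 2 of 11 at 0. Its log2 fold change was -0.22 ± 0.80, with an interval of -1.86 to 1.41. KCNJ5 had a median of 7.84 in drinkers and 15.5 in controls and a log2 fold change of -0.60 ± 0.76, with an interval of -2.17 to 0.96. The intervals of these genes were several times wider than those of KCNJ3 and KCNJ6. By edgeR's quasi-likelihood test the Benjamini-Hochberg adjusted p was 1.00 for each member, and the lowest unadjusted p was 0.435 (KCNJ5). Of all 13769 transcripts tested, 0% passed adjusted p 0.05 and 4.57% passed an unadjusted p of 0.05, against 0 of the 4 members on either count.

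Within cohort 1 (8 drinkers, 8 controls), 0 of 4 members passed adjusted p 0.05, beside 0.0382% of 13086 transcripts, and 0 of 4 passed an unadjusted p of 0.05, beside 10.2%. KCNJ3 ran from 206 to 877 in these drinkers (median 306) and from 149 to 412 in these controls (median 302), with a log2 fold change of 0.35 ± 0.30 and an adjusted p of 0.830 by edgeR. KCNJ6 had medians of 139 and 131, and its log2 fold change was -0.13 ± 0.40 (edgeR adjusted p = 0.984). KCNJ9 was at 0 in 3 of 8 drinkers and 2 of 8 controls, and KCNJ5 in 1 of 8 and 2 of 8.

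In cohort 2 (9 drinkers, 3 controls), 0 of 4 members passed either threshold, beside 0% of 12785 transcripts by adjusted p and 3.76% by unadjusted p. The 3 controls had KCNJ3 values of 308, 413 and 369, and the 9 drinkers ran from 177 to 475 (median 271). All 3 controls lay above the drinkers' median and below the highest drinker, and the log2 fold change was -0.30 ± 0.24 (edgeR adjusted p = 1.00). KCNJ6 in these controls was 145, 228 and 124, against 81.0 to 310.1 (median 128) in the drinkers, with a log2 fold change of -0.05 ± 0.40. KCNJ9 in these controls was 142, 60.3 and 26.9, and the drinkers ran from 0 to 145. The positive value of KCNJ3 in cohort 1 rested on the drinker at 877: without that animal it was 0.02 ± 0.23. The test of the difference between cohorts gave a log2 value of -0.66 ± 0.43 for cohort 2 minus cohort 1, with an unadjusted p of 0.139 and an adjusted p of 0.720 by edgeR, and -0.33 ± 0.35 without the drinker at 877, a fit added after the data were seen. For this difference 0.0145% of 13769 transcripts passed adjusted p 0.05 and 9.62% an unadjusted p of 0.05, against 0 of 4 members on both.

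Between the cohorts themselves, with drinking in the model, 0 of 4 members passed adjusted p 0.05, beside 0.0436% of 13769 transcripts, or an unadjusted p of 0.05, beside 9.8%. KCNJ3 ran from 177 to 475 in cohort 2 (median 292, n = 12) and from 149 to 877 in cohort 1 (median 302, n = 16), a log2 fold change of -0.07 ± 0.21. KCNJ6 had medians of 135 and 137 and a log2 fold change of 0.06 ± 0.29. KCNJ5 gave -0.24 ± 0.81 and KCNJ9 -0.36 ± 0.85, the latter at 0 in 1 of 12 animals of cohort 2 and 5 of 16 of cohort 1. With limma-voom the KCNJ9 value turned to 1.26, so no direction is given for it. How the cohorts differed in extraction or sequencing is not given in the sources used here.

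**Figure D2:**
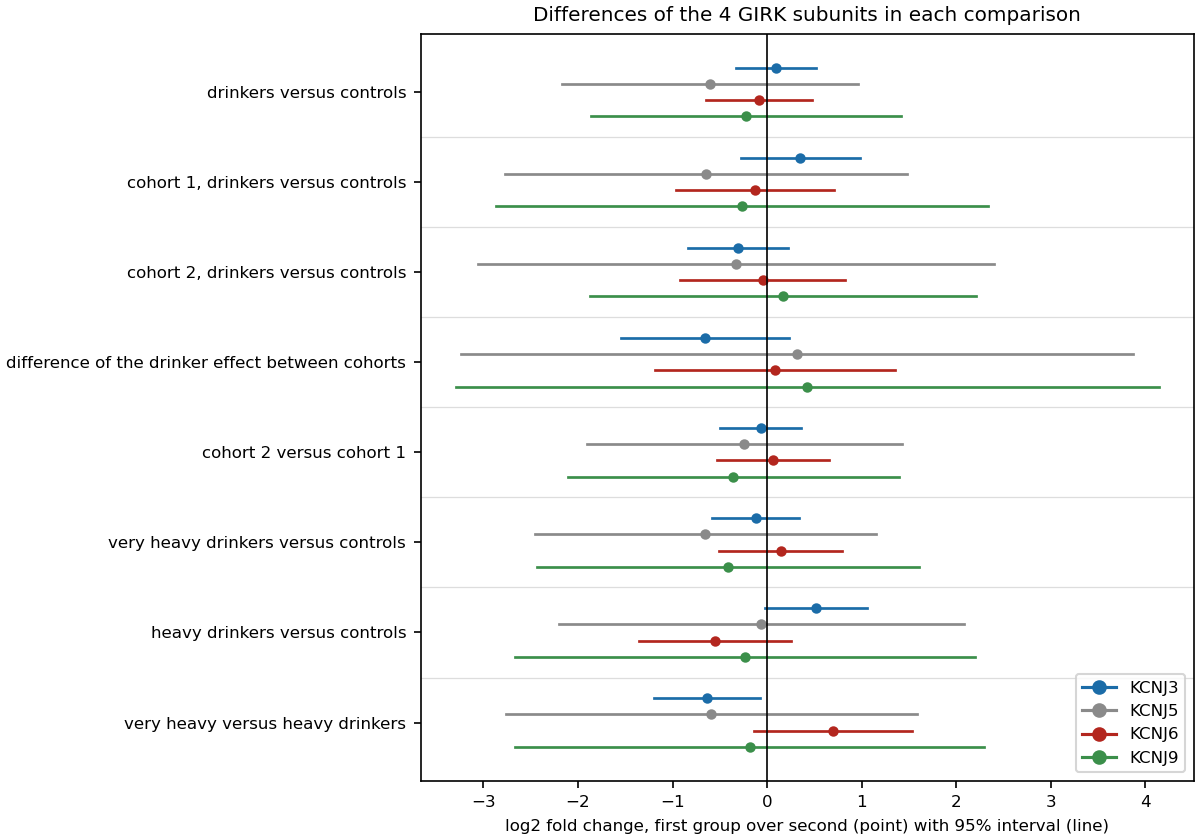
Log2 fold change (x axis, point) with its 95% interval (line) of the 4 GIRK subunits, by color, in each of the 8 comparisons (y axis), from edgeR's quasi-likelihood fit. The intervals of KCNJ3 and KCNJ6 are narrower than those of KCNJ5 and KCNJ9, and the interval of KCNJ3 between Very Heavy and Heavy drinkers, -1.19 to -0.07, is the 1 that does not include 0.

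Across drinking categories KCNJ3 and KCNJ6 stood in different orders. For KCNJ3 the mean normalized count was highest in Heavy (435 ± 265, SD, n = 5), followed by Binge (309 ± 54.8, n = 2), controls (305 ± 85.1, n = 11) and Very Heavy (281 ± 78.6, n = 9), with the Low animal at 206. For KCNJ6 the mean was highest in Very Heavy (182 ± 91.7), followed by controls (165 ± 85.0), Binge (164 ± 51.2) and Heavy (112 ± 46.0), with the Low animal at 108. Neighbours in these orders differed by less than the larger SD of the pair, except that Binge and Heavy differed for KCNJ6 by slightly more than either SD. KCNJ9 had means of 107 ± 78.3 in controls, 96.7 ± 31.6 in Binge, 91.3 ± 89.3 in Heavy and 80.6 ± 65.0 in Very Heavy, with the Low animal at 187. For KCNJ5 the means were 15.9 ± 13.2 in controls, 15.2 ± 8.16 in Heavy, 10.02 ± 9.38 in Very Heavy and 5.09 ± 1.15 in Binge, with the Low animal at 0.

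The 5 Heavy drinkers had KCNJ3 values of 877, 324, 212, 289 and 475, and the 9 Very Heavy drinkers ran from 177 to 414 with a median of 258. Among the Heavy drinkers 2, 1 from each cohort, stood above every Very Heavy drinker. KCNJ3 between Very Heavy and Heavy drinkers gave a log2 fold change of -0.63 ± 0.27 with an unadjusted p of 0.0280, which did not pass the correction (edgeR adjusted p = 0.677). It was the 1 of 4 members with an unadjusted p under 0.05 there, as were 6.8% of all 13769 transcripts, while 0% passed adjusted p 0.05. With cohort in the model the value was -0.65 ± 0.29, and without the Heavy drinker at 877 it was -0.22 ± 0.25 (edgeR unadjusted p = 0.387). Heavy drinkers against controls gave 0.51 ± 0.26 (edgeR unadjusted p = 0.0608, adjusted p = 0.734), and 0.10 ± 0.24 without that animal. In that comparison 0 of 4 members passed either threshold, beside 0% of transcripts by adjusted p and 7.15% by unadjusted p.

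The same Heavy drinker had the highest score of general neuron markers of all 28 animals, where a score is the mean over a list's genes of their standardized log2 CPM. The scores of the 5 Heavy drinkers, in the order above, were 1.31, 0.87, 0.30, -0.25 and 0.84, and those of the Very Heavy drinkers ran from -0.93 to 0.54. With this score as a covariate, the KCNJ3 difference between Very Heavy and Heavy drinkers was 0.05 ± 0.22 and that between Heavy drinkers and controls -0.01 ± 0.20. This covariate was added after the data were seen. In the general neuron list 6 of 7 markers passed the filter, all but RBFOX3. SYT1, STMN2 and ELAVL4 were at 0 in some animals, SYT1 with a median of 0 and at most 10.4 CPM. The list's summed CPM ran from 2451 to 9015 in controls and from 2691 to 17960 in drinkers.

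KCNJ6 in the 5 Heavy drinkers, in the same order, was 142, 135, 34.3, 143 and 108. In the Very Heavy drinkers it ran from 81.0 to 310.1 with a median of 141, and 4 of the 9 stood above every Heavy drinker. Its log2 fold change between Very Heavy and Heavy drinkers was 0.70 ± 0.41 (edgeR unadjusted p = 0.0981, adjusted p = 0.873), and 0.46 ± 0.40 without the Heavy drinker at 34.3. With the dopamine neuron marker score as a covariate, also added after the data were seen, it was 0.67 ± 0.28, with an unadjusted p of 0.0248 and an adjusted p of 0.634 by edgeR. KCNJ6 in Heavy drinkers against controls gave -0.55 ± 0.39 (edgeR adjusted p = 0.890).

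For Very Heavy drinkers against controls the log2 fold changes were -0.12 ± 0.22 for KCNJ3, 0.14 ± 0.32 for KCNJ6, -0.41 ± 0.98 for KCNJ9 and -0.65 ± 0.88 for KCNJ5. Again 0 of 4 members passed adjusted p 0.05 or an unadjusted p of 0.05, beside 0% and 4.62% of transcripts. The comparisons of categories with controls share their 11 control animals.

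The balance between subunits was compared as the log2 ratio of normalized counts with 0.5 added to each. The KCNJ6 to KCNJ3 ratio was -1.13 ± 0.91 in drinkers (SD, n = 17) and -0.98 ± 0.96 in controls (n = 11), a difference of -0.15 (two-sided permutation test, p = 0.675). It was -1.02 ± 0.74 in cohort 2 (n = 12) and -1.11 ± 1.05 in cohort 1 (n = 16), a difference of 0.09 (permutation p = 0.793). The KCNJ9 to KCNJ3 ratio differed by -0.54 between drinkers and controls (permutation p = 0.690) and by 0.94 between cohorts (permutation p = 0.446). The KCNJ6 to KCNJ9 ratio differed by 0.39 (permutation p = 0.764) and -0.84 (permutation p = 0.501). The 4 values with KCNJ9 include the 6 animals at 0, whose ratios depend on the added 0.5. All 6 comparisons had an adjusted p of 0.793.

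**Figure D3:**
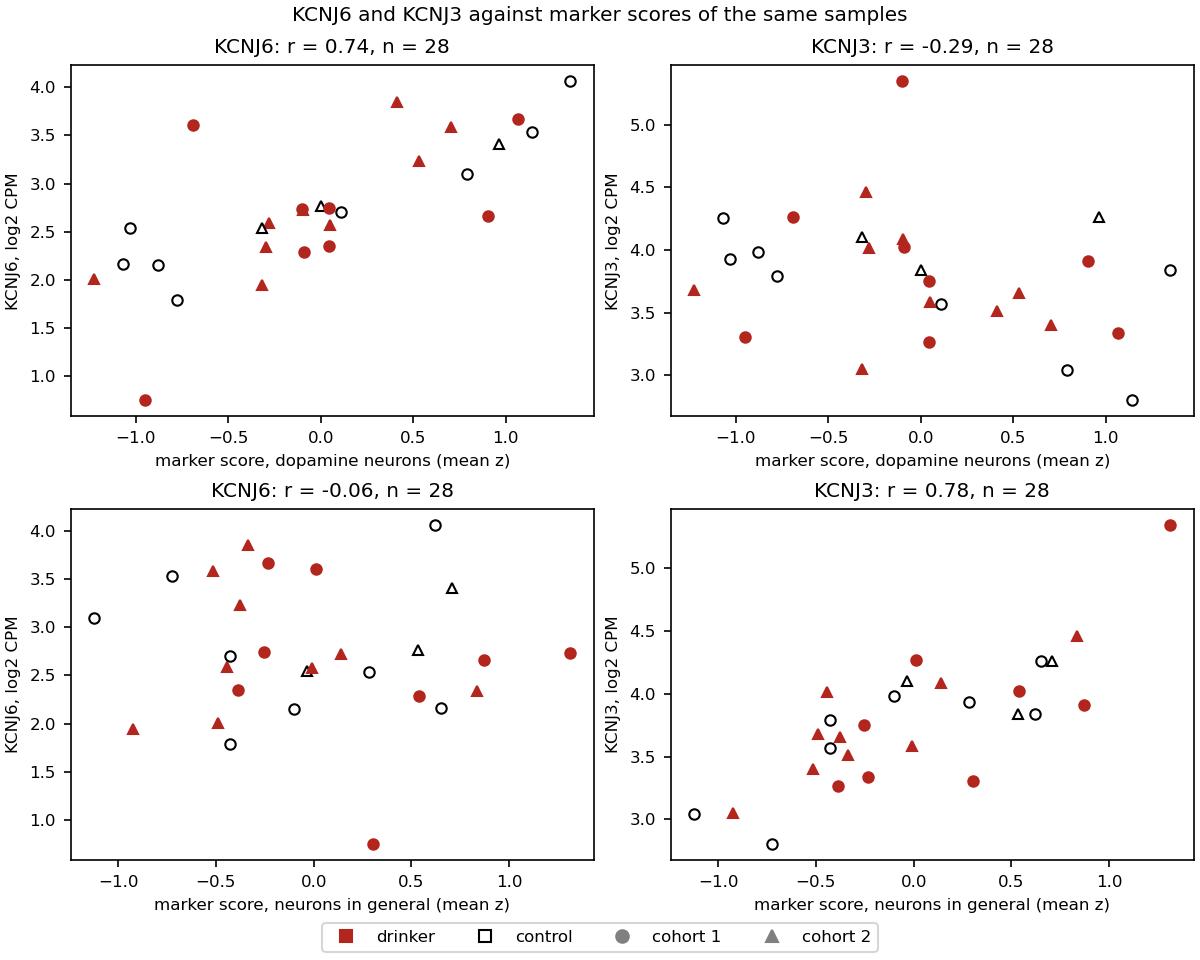
Log2 CPM (y axis) of KCNJ6 (left) and KCNJ3 (right) against the dopamine neuron marker score (x axis, top) and the general neuron marker score (x axis, bottom), 1 point per animal, filled for drinkers and open for controls, circles for cohort 1 and triangles for cohort 2. KCNJ6 rises with the dopamine neuron score (r = 0.74) and KCNJ3 with the general neuron score (r = 0.78), while the other pairs have r = -0.06 and r = -0.29.

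KCNJ6 and KCNJ3 tracked different marker lists across the 28 animals. KCNJ6 correlated with the dopamine neuron score with Pearson's r = 0.743 and Spearman's rho = 0.763 (permutation p = 1e-05 for each, the smallest that 100000 resamples can give; adjusted p = 0.0002 and 0.0004 over 40 relations). Without the 2 animals farthest from the median score, r was 0.681. It was 0.704 in cohort 1 (n = 16), 0.854 in cohort 2 (n = 12) and 0.745 with values centred within cohort. In controls (n = 11) r was 0.927, and in drinkers (n = 17) it was 0.638, with permutation p = 0.00567 and adjusted p = 0.113 (rho 0.603, adjusted p = 0.160). Whether r differed between drinkers and controls was not tested. The control with the highest dopamine score of all animals, 1.35, also had the highest KCNJ6 value, 359, and the drinker with the lowest KCNJ6 value, 34.3, had a score of -0.95. A Very Heavy drinker off the trend had KCNJ6 at 262 with a score of -0.69. Gene and score come from the same library and share its depth and composition.

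By single marker, KCNJ6 had r = 0.720 with TH, 0.721 with SLC6A3 and 0.824 with PITX3, a transcription factor of midbrain dopamine neurons. The coefficient was 0.679 with DDC, which completes dopamine synthesis, and 0.567 with SLC18A2, which loads dopamine into vesicles. It was lowest with ALDH1A1 (0.136), NR4A2 (0.229) and FOXA2 (0.264), and all 13 coefficients were positive. PITX3, NR4A2 and ALDH1A1 are among the markers at 0 in some animals. With the general neuron score KCNJ6 gave r = -0.065 (permutation p = 0.745). With the dopamine score in the model, the difference of KCNJ6 between drinkers and controls was 0.02 ± 0.20 in place of -0.09 ± 0.28, and that between cohorts 0.03 ± 0.21 in place of 0.06 ± 0.29.

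KCNJ3 correlated with the general neuron score with r = 0.781 (permutation p = 1e-05, adjusted p = 0.0002) and rho = 0.717 (permutation p = 3e-05, adjusted p = 0.0006). Without the 2 animals farthest from the median score r was 0.683. It was 0.785 in cohort 1, 0.817 in cohort 2, 0.790 centred within cohort, 0.814 in controls and 0.770 in drinkers, each with an adjusted permutation p under 0.05. By Spearman's rho the call was lost in cohort 2 (0.762, permutation p adjusted 0.113), in controls (0.809, adjusted 0.0816) and in drinkers (0.622, adjusted 0.160), and kept in cohort 1 (0.729, adjusted 0.0424). Among the 6 markers the coefficient was highest with SNAP25 (0.721), a protein of synaptic vesicle fusion, followed by SYT1 (0.608), whose median was 0 CPM, and lowest with ELAVL4 (0.236). With the dopamine neuron score KCNJ3 gave r = -0.294 (permutation p = 0.130, adjusted p = 0.371). With the general neuron score in the model, the difference of KCNJ3 between drinkers and controls was -0.05 ± 0.21 in cohort 1 and 0.03 ± 0.20 in cohort 2, in place of 0.35 ± 0.30 and -0.30 ± 0.24.

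**Figure D4:**
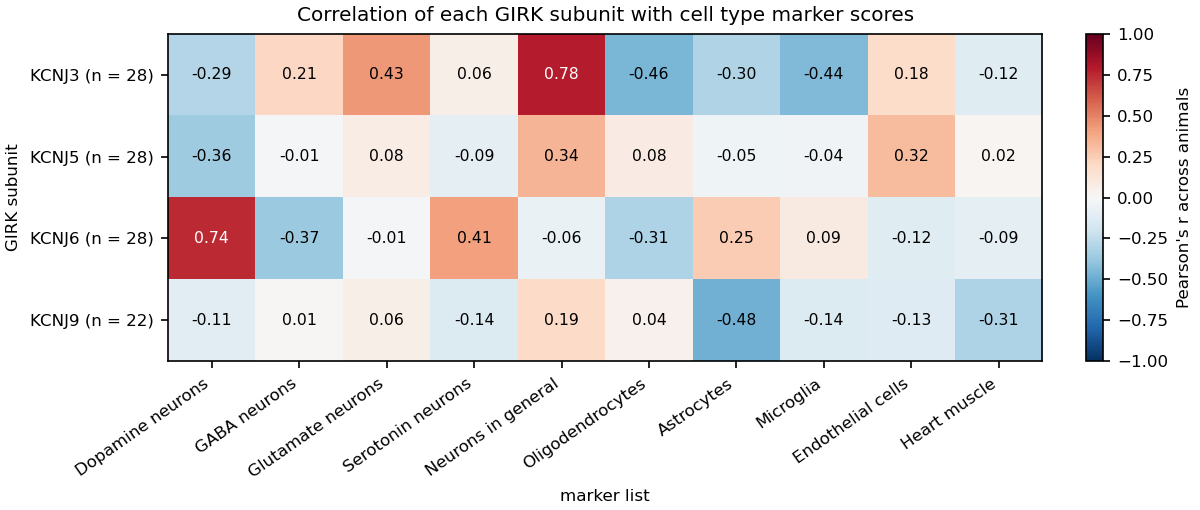
Pearson's r across animals between the log2 CPM of each GIRK subunit (rows) and the score of each of 10 marker lists (columns), on a color scale from -1 to 1. The 2 strongest cells are KCNJ3 with neurons in general (0.78) and KCNJ6 with dopamine neurons (0.74).

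Of the 40 relations between members and marker scores, these 2 were the ones with an adjusted p under 0.05. KCNJ3 had unadjusted permutation p values under 0.05 with the glutamate neuron (r = 0.433), oligodendrocyte (r = -0.459) and microglia (r = -0.439) scores. KCNJ6 had them with the GABA neuron (r = -0.375) and serotonin neuron (r = 0.411) scores, and KCNJ9 with the astrocyte score (r = -0.482, n = 22). The astrocyte score had a mean of -0.27 in cohort 1 and 0.36 in cohort 2, and r between KCNJ9 and that score was -0.146 with values centred within cohort, 0.097 in cohort 1, -0.243 in cohort 2 and 0.021 with the animals at 0 kept, so this relation did not hold within cohorts. KCNJ6 with GABA neurons had r = -0.674 in cohort 1 and 0.334 in cohort 2. The other 4 kept their sign in both cohorts, with centred values of 0.472 for glutamate neurons, -0.465 for oligodendrocytes and -0.438 for microglia (KCNJ3) and 0.416 for serotonin neurons (KCNJ6). The serotonin score rests on 1 of 3 genes, as SLC6A4 and FEV did not pass the filter. The astrocyte score rests on 4 of 6 genes, without SLC1A2 and ALDH1L1. The oligodendrocyte and microglia scores rest on 6 of 7 genes each, without MAG and C1QA. KCNJ9 was correlated over the 22 animals above 0, since those at 0 stood apart. The largest coefficient of KCNJ5 was -0.358 with dopamine neurons (permutation p = 0.0614, adjusted p = 0.273). For the heart muscle list, chosen because GIRK4 is known from the atrium, 2 of 4 markers passed, MYH6 and NPPA did not, the summed CPM was at most 2.71 in any animal, and r with KCNJ5 was 0.016. Blood could not be assessed. Of its 4 markers 3, the globins HBB, HBA1 and HBA2, had no entry under these symbols in the deposited table. The remaining marker, ALAS2, did not pass the filter.

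No pair of members passed the correction. Among the 6 pairs r ran from -0.289 (KCNJ5 and KCNJ6) to 0.369 (KCNJ3 and KCNJ5), with permutation p values of 0.136 and 0.0524 and adjusted p values of 0.407 and 0.314. KCNJ3 and KCNJ6 gave r = -0.040 (permutation p = 0.837), and KCNJ3 and KCNJ9 gave r = 0.151 over 22 animals (permutation p = 0.477).

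Among 7984 transcripts with at least 5 counts in every animal, those most like KCNJ3 across the 28 animals were SLC6A17 (r = 0.853), SH3BGRL2 (0.829), SCAMP5 (0.829), RYR2 (0.827) and GPR139 (0.819). SLC6A17 is a transporter of synaptic vesicles and RYR2 a calcium release channel. Those most like KCNJ6 were GPR26 (0.732), RGS16 (0.731), SLC6A3 (0.721), TH (0.720) and OCIAD2 (0.709), so that 2 of its 5 are dopamine neuron markers. In cohort 1 and cohort 2 taken alone, r with KCNJ6 was 0.733 and 0.830 for RGS16, 0.669 and 0.835 for SLC6A3 and 0.826 and 0.403 for OCIAD2. KCNJ9, over 22 animals, was most like ATF4 (0.738), the mitochondrial ATP6 (0.691), GRN (0.660), CPLX3 (0.655) and PPA1 (0.643), but in cohort 1 alone r was -0.071 for GRN and 0.238 for PPA1. KCNJ5 was most like PSME4 (0.658), NAA25 (0.641), STOX2 (0.638), TMEM33 (0.603) and IKBIP (0.595). These coefficients are the highest of many and are given as a description, with no test.

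Genes that act on or beside GIRK channels were followed in 5 lists with 69 genes in all. They held 23 receptors that couple to Gi/o, 5 G protein alpha subunits, 15 beta and gamma subunits, 15 regulators and 11 other inward rectifiers, of which 62 could be tested for drinkers against controls. OPRD1, GNG8, GNG10, KCNJ11, KCNJ12, KCNJ15 and KCNJ16 did not pass the filter. With 0 of 62 past adjusted p 0.05, 2 were higher and 2 lower in drinkers at an unadjusted p under 0.05, beside the 4.57% of all transcripts given above. The median log2 fold change was -0.03 for receptors, -0.02 for alpha subunits, 0.12 for beta and gamma subunits, 0.05 for regulators and -0.0018 for the other inward rectifiers, beside 0.0015 over all transcripts.

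Among the receptors the lowest unadjusted p values were those of OPRM1, the mu opioid receptor, and OPRL1, the nociceptin receptor. OPRM1 was at 0 in 11 of 11 controls and 10 of 17 drinkers and reached a normalized count of 20.2 in 1 drinker. It passed the filter only through the drinkers, so its test says nothing and its place among the 2 higher genes is fixed by the filter. OPRL1 gave a log2 fold change of -0.15 ± 0.11. GNAI3, an inhibitory alpha subunit, ran from 1032 to 1625 in drinkers and from 884 to 1298 in controls, a log2 fold change of 0.18 ± 0.07 (edgeR unadjusted p = 0.0120, adjusted p = 0.840), and GNAI2 gave -0.07 ± 0.07. Of the gamma subunits, GNG11 gave 0.33 ± 0.18 and GNG4 0.30 ± 0.17.

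GRK2, a kinase that desensitizes receptors and binds beta-gamma dimers, ran from 2519 to 4011 in drinkers and from 2928 to 4040 in controls, a log2 fold change of -0.16 ± 0.07 (edgeR unadjusted p = 0.0285). RGS11, which speeds the return of G proteins to the resting state, gave -0.27 ± 0.12 (edgeR unadjusted p = 0.0358). Both had an adjusted p of 1.00. Within cohorts GRK2 gave -0.32 ± 0.07 in cohort 1 (edgeR adjusted p = 0.127) and 0.07 ± 0.11 in cohort 2, and the difference between cohorts was 0.39 ± 0.13 (edgeR unadjusted p = 0.00552, adjusted p = 0.316). RGS11 gave -0.40 ± 0.13 and 0.06 ± 0.23, with a difference of 0.46 ± 0.26 (edgeR adjusted p = 0.633). Neither difference passed the adjusted test. GNAI3 gave 0.26 ± 0.09 in cohort 1 and 0.11 ± 0.10 in cohort 2. KCNJ14 and KCNJ8 of the other inward rectifiers gave -0.20 ± 0.18 and 0.15 ± 0.16.

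Between cohorts 3 of the 62 were higher and 2 lower in cohort 2 at an unadjusted p under 0.05, beside 9.8% of all transcripts, and 0 passed adjusted p 0.05. KCNJ8, the pore subunit of an ATP-sensitive channel of blood vessels, had the lowest p of the 5 lists. It ran from 131 to 392 in cohort 2 and from 123 to 224 in cohort 1, a log2 fold change of 0.52 ± 0.14 (edgeR unadjusted p = 0.000901, adjusted p = 0.157). KCNJ1, known from the kidney, gave 0.43 ± 0.31, and the median of the other inward rectifiers was 0.43 beside 0.02 over all transcripts. Scores of 5 endothelial and 4 astrocyte markers, whose difference between cohorts was not tested, had means of 0.24 and 0.36 in cohort 2 and -0.18 and -0.27 in cohort 1, with the lowest endothelial score, -1.83, in a Very Heavy drinker of cohort 1. Summed CPM of the endothelial markers ran from 69.4 to 129 in cohort 2 (median 82.3) and from 34.8 to 109.6 in cohort 1 (median 84.7), so their medians stood in the opposite order to the mean scores, and that of the astrocyte markers from 538 to 1248 (median 749) and from 486 to 786 (median 651). Their part in the values of these channels was not tested.

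The neuronal alpha subunit GNAO1 gave a log2 fold change of -0.23 ± 0.10 between cohorts (edgeR unadjusted p = 0.0334) and GNAI3 -0.10 ± 0.07. The gamma subunits GNG3 and GNG4 gave -0.36 ± 0.15 (edgeR unadjusted p = 0.0274) and 0.35 ± 0.16 (edgeR unadjusted p = 0.0394). The receptors ADRA2A and GABBR1 gave 0.34 ± 0.19 and 0.20 ± 0.12, and GRK2 gave 0.10 ± 0.07. RGS9 was at 0 in 9 of 12 animals of cohort 2 and 15 of 16 of cohort 1. It could pass the filter only through cohort 2, so no test is given for it, although it is 1 of the 3 counted as higher there. In each of the other 6 comparisons 0 genes of the 5 lists passed adjusted p 0.05. The share with an unadjusted p under 0.05 was above that of all transcripts in each of them except Very Heavy against Heavy drinkers. In cohort 2, 6 of 60 were higher in drinkers and 0 lower, beside 3.76% of all transcripts in both directions. In the difference of the drinker effect between cohorts, 7 of 62 were higher and 1 lower, beside 9.62%, and in cohort 1, 4 of 61 were higher and 3 lower, beside 10.2%. Very Heavy drinkers against controls had 2 higher and 2 lower of 62, beside 4.62%, Heavy drinkers against controls 3 higher and 2 lower, beside 7.15%, and Very Heavy against Heavy drinkers 0 higher and 2 lower, beside 6.8%. OPRM1 is 1 of the higher genes in cohort 1 and in both comparisons of categories with controls, and RGS9 is 1 of the lower genes in the latter. GNG12, a gamma subunit, is 1 of the 6 higher genes of cohort 2, where it was at 0 in 3 of 3 controls and 4 of 9 drinkers. GNG12 and GNB2, a beta subunit at 0 in 3 of 3 controls and 5 of 9 drinkers of cohort 2, are 2 of the 7 higher in the difference between cohorts. GNB5, another beta subunit, is 1 of the 3 lower genes of cohort 1, at 0 in 7 of 8 drinkers and 3 of 8 controls there. Since genes at 0 in many animals enter these tallies, nothing is read from them.

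**Figure D5:**
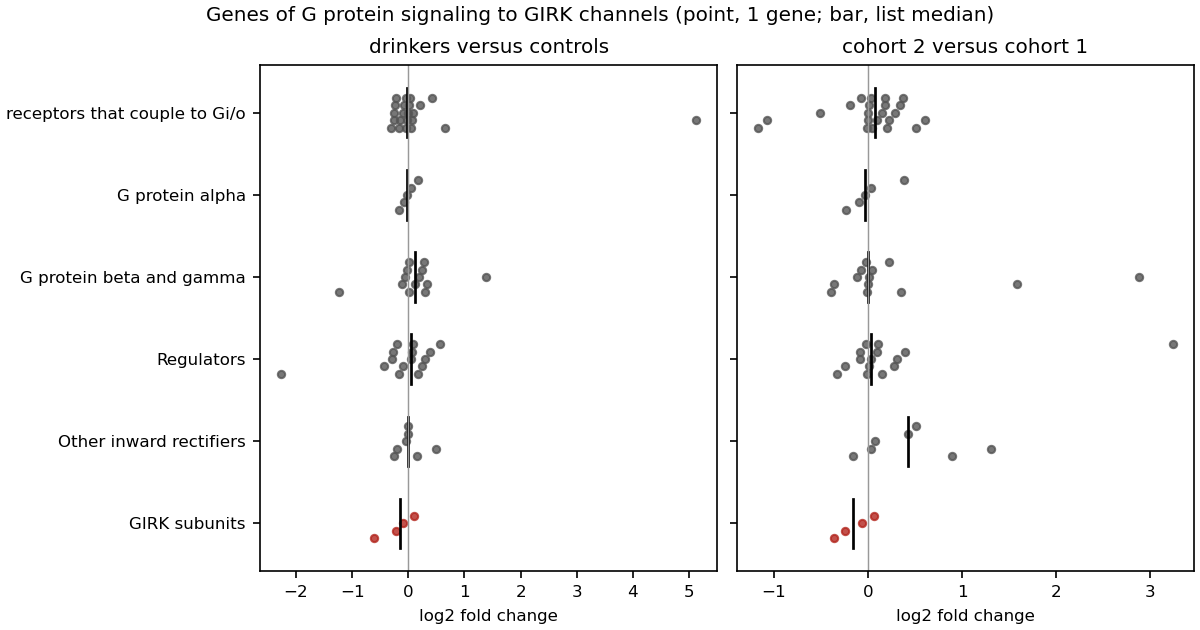
Log2 fold change (x axis) of each tested gene of the 5 lists and of the 4 GIRK subunits (rows), for drinkers against controls (left) and cohort 2 against cohort 1 (right). A point is 1 gene and the bar the median of its row. Most points lie near 0, and the points farthest to the right are OPRM1 on the left and RGS9 on the right, both at 0 in most animals.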

How the data were processed

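RNA from VTA punches of 28 macaques had been sequenced as 150-base read pairs on a NovaSeq, with 1 library per animal made with the Nugen Universal Plus mRNA kit. The authors trimmed reads with Trim Galore 0.6.7, quantified them with Salmon 1.9.0 against Mmul_10 and deposited estimated counts without normalization, 1 transcript per gene symbol. The annotation release and the strand setting are not given in the sources used here. Counts were rounded to whole numbers, and 1 entry without a symbol (1.16e-05% of counts) was left out. Groups came from the labels and cohorts from the study's source data.

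Transcripts that reached 5 counts in 3 or more libraries were tested by quasi-likelihood in edgeR 4.0.16 (R 4.3.3), with TMM factors, p-values adjusted by Benjamini-Hochberg over the whole table, and SEs and 95% intervals from the F statistic. Drinkers were compared with controls in all animals and within cohorts, cohorts with drinking in the model, and categories in 1 fit over all 5 groups. Alternatives were DESeq2 1.42.0, limma 3.58.1 (voom), RLE size factors, no filter, mitochondrial transcripts left out, covariates, subsets of groups and each animal left out in turn. Ratios and correlations (log2 CPM, prior count 2) used two-sided permutation tests with 100000 resamples in Python 3.11.15 with scipy 1.17.1. Sequences and positions came from RefSeq on Mmul_10. The fits were tested on simulated data.

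The members and lists were chosen with earlier results of these data known. Named genes are the 4 members; from each list the genes past adjusted p 0.05 or, as none passed, the 2 with the lowest unadjusted p between drinkers and controls and the 2 between cohorts; and the 5 transcripts most correlated with each member.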

Additional observations from a re-analysis of the deposited data

Results flagged for a closer look

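KCNJ3 in 1 Heavy drinker of cohort 1 had a normalized count of 877.11, far above the next of the 8 drinkers of that cohort (413.83). Its gap to that animal was 0.690 of the range, above Dixon's critical value of 0.526 for 8 animals. Among the 5 Heavy drinkers of both cohorts its gap of 0.605 of the range was under the critical value of 0.710. The same library had the highest general neuron marker score, 1.31, and its part in the KCNJ3 value was not tested. Over 20 groups of animals examined for the 4 members this was the 1 value that stood apart, and chance alone marks about 1 in 20 groups.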

How the results depend on the processing

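None of 570 fits of a member under an alternative passed adjusted p 0.05, and the lowest adjusted p of a member in any fit was 0.562, so the sign changes of members below are among values that did not pass. Of 190 such values from settings other than leaving out 1 animal, 176 kept their sign. The sign turned with the dopamine neuron score as a covariate for KCNJ6 in drinkers against controls (0.020) and in cohort 2 (0.14), and for KCNJ5 in the difference between cohorts (-0.16) and in Heavy drinkers against controls (0.064). With the general neuron score it turned for KCNJ3 in cohort 1 (-0.048), in cohort 2 (0.033), in their difference (0.12), between cohorts (0.090), in Very Heavy and Heavy drinkers against controls (0.034 and -0.012) and between these categories (0.046). Between cohorts, limma-voom gave 0.026 for KCNJ3 and 1.26 for KCNJ9, and controls only gave 0.35 for KCNJ3. Both score covariates in the category comparisons, the general neuron score, and the correlations in drinkers or controls alone or with KCNJ9 zeros kept were chosen after seeing the data.

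Leaving out 1 animal turned 21 of 380 values. Over these fits KCNJ3 in drinkers against controls ran from -0.069 (without the Heavy drinker at 877) to 0.14, and KCNJ6 from -0.18 to 0.10, positive only without the control at 359. KCNJ6 ran from -0.31 to 0.13 in cohort 1 and from -0.23 to 0.25 in cohort 2, where KCNJ5 ran from -0.67 to 0.093 and KCNJ9 from -0.24 to 0.98. Between cohorts KCNJ3 ran from -0.14 to 0.15 and KCNJ6 from -0.057 to 0.18. In Heavy drinkers against controls KCNJ5 ran from -0.26 to 0.16 and KCNJ9 from -0.75 to 0.089, and between Very Heavy and Heavy drinkers KCNJ9 ran from -0.51 to 0.33.

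The count of transcripts called moved most with DESeq2: 11 for drinkers against controls, 236 and 22 in cohorts 1 and 2, 129 for their difference, 121 between cohorts, 22 and 48 for Very Heavy and Heavy drinkers against controls and 56 between them, in place of 0, 5, 0, 2, 6, 0, 0 and 0. In cohort 1 no filter gave 3, the dopamine score 2, the general neuron score 3, and leaving out animals 1 to 4. In cohort 2 leaving out animals gave 0 to 1, and for the difference between cohorts both the general neuron score and leaving out the Heavy drinker at 877, also chosen after seeing the data, gave 0. Between cohorts RLE size factors gave 3, the dopamine score 11, limma-voom 23, drinkers only 105, controls only 0, and leaving out animals 0 to 8. The cause of these shifts was not tested.

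The KCNJ6 to KCNJ3 ratio turned to 0.21 in cohort 2 alone. Between members, r turned for KCNJ3 and KCNJ6 in drinkers alone (0.11), for KCNJ3 and KCNJ9 (-0.47) and KCNJ5 and KCNJ9 (-0.084) in controls alone, and for KCNJ6 and KCNJ9 in cohort 1 (0.097), in controls (0.081) and with zeros kept (0.31). In drinkers alone 1 relation with a marker score passed in place of 2. KCNJ6 with GABA neurons gave 0.33 in cohort 2, and KCNJ9 with astrocytes 0.097 in cohort 1 and 0.021 with zeros kept. Each caloric control was yoked to a drinker, but the labels do not give these partners. No paired analysis was therefore possible, and all animals were treated as independent. The low counts of KCNJ5, at most 41 in a library, limit what its values can show, and the reason for them was not tested.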
